A study of Mus musculus with 6 samples.

Results

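Epithelial cells signal to immune cells through secreted chemokines and defend their surface with antimicrobial and acute phase proteins. The 10 genes described here encode such proteins: the neutrophil-attracting chemokines Cxcl1, Cxcl2 and Cxcl5, the chemokine Ccl20, the granulocyte growth factor Csf3, the serum amyloid proteins Saa1 and Saa2, the endotoxin-binding protein Lbp, and the iron-withholding proteins Lcn2 and Ltf. They were taken by name from an array table of mammary organoids, and each was represented by the probe set annotated to that symbol alone. All 10 were found among 19937 measured genes, and all 10 had 1 probe set each.

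The organoids were clumps of epithelium released by enzymes from mammary glands of female FVB mice that carry an inducible knockout of Erbb3 (ErbB3 DOX-KO). They were grown for 14 days in a basement-membrane gel with 5 µM doxycycline (DOX, 3 arrays), which switches the knockout on, or with none (control, 3 arrays). All 6 cultures carry the inducible allele, so effects of the drug itself and of the induced deletion cannot be told apart. The promoter that drives the deletion is not given in the labels, and neither is whether each replicate came from its own mouse, so p values measure only the spread between these samples. The question, as the labels frame it, is what changes in mammary epithelium once loss of Erbb3, a receptor for neuregulins, is induced.

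Chemokine and acute phase genes of epithelia are commonly switched on through the transcription factor NF-kB downstream of Toll-like and cytokine receptors, and many acute phase genes also need STAT3 and C/EBP factors. In the mammary gland these proteins are known from infection, from involution after weaning and, for lactoferrin, from milk. LBP carries bacterial lipopolysaccharide to CD14, which passes it to the receptor TLR4.

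Levels are log2 values, and differences are DOX minus control on that scale. Erbb3 read 10.36, 9.31 and 9.82 in DOX replicates 1, 2 and 3, against 9.78, 9.71 and 9.69 in control replicates 1, 2 and 3. DOX replicates 1 and 3 thus lay above every control array, and DOX replicate 2 lay below them. The difference of Erbb3 was 0.10 over 6 arrays (limma adjusted p = 0.845) and 0.37 without DOX replicate 2 (limma adjusted p = 0.105). Where its probe set lies relative to the deleted part is not known here, and if it lies outside, these readings check neither the deletion nor the labels. All directions follow the arrays as labelled. DOX replicate 2 stood apart. Its correlation with the other arrays across genes was 0.816 to 0.865, against at least 0.963 among those 5, and regressing it on the mean of the control arrays gave a slope of 0.55. Its scale was compressed: the median gene of the lowest 10% by control mean was shifted by 0.84 there, and that of the top 10% by −1.59. Erbb3 was among that top 10%. The 10 genes are therefore described both with all 6 arrays and without DOX replicate 2, and list medians are those without it unless stated. The second fit rests on 2 arrays labelled DOX. The luminal keratins Krt8 and Krt18 averaged 12.5 and 12.6 in control arrays, and the 10 basal markers had control means from 4.45 for Cnn1, a smooth muscle protein gene, to 10.27 for the integrin gene Itga6. Of 10 basal markers Oxtr, the oxytocin receptor, fell with all arrays (limma adjusted p = 0.018) and 4 fell without DOX replicate 2, among them Krt14 (limma adjusted p = 1.76e-05). Over all genes 2.26% were called lower with all arrays and 14.3% without DOX replicate 2. None of 6 endothelial and 6 adipocyte markers was called in either fit.

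Promoter windows of 7 of the 10 genes were at hand in RefSeq (GRCm38.p6, 250 bases before to 50 after the annotated start, 5′ to 3′). They were searched on both strands for a kappaB motif to which NF-kB binds (3 G, 2 bases of any kind, 3 T and 2 C in that order), for a C/EBP motif, TTGCNNAA, and for a STAT motif, TTCNNNGAA. These motifs were chosen with the windows and the expression values in view. The windows of Cxcl1, Cxcl2 and Ccl20 are shown because all 3 rose without DOX replicate 2 and hold the kappaB motif. Those of Cxcl5, Csf3 and Lbp, which fell in that fit, were not analysed here. Lcn2 was the only gene that fell with a window at hand. The windows therefore cannot compare motifs between genes that rose and genes that fell. The window of Lcn2 is shown as one of those that hold the C/EBP motif and not the kappaB motif. Capitals mark motif matches, and no match overlapped another.
Cxcl1, chr5:90890995-90891294, plus strand: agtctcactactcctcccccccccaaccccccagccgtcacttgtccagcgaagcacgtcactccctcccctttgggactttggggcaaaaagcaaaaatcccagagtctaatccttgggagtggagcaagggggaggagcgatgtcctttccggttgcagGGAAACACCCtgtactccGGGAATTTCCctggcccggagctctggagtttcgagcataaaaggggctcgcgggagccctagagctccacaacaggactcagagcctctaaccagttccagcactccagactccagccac
Cxcl2, chr5:90903649-90903948, plus strand: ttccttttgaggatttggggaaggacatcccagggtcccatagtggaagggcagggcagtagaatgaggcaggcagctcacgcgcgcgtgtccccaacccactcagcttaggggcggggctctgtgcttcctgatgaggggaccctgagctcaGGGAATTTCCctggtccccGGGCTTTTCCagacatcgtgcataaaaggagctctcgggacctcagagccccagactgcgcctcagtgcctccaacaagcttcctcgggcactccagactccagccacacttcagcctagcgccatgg
Ccl20, chr1:83116516-83116815, plus strand: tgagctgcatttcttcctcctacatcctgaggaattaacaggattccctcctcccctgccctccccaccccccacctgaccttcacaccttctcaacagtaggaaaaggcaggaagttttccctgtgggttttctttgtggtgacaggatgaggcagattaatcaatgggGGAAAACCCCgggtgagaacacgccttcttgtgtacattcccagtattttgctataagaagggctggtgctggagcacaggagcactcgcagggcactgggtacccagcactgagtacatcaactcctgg
Lcn2, chr2:32387690-32387989, minus strand: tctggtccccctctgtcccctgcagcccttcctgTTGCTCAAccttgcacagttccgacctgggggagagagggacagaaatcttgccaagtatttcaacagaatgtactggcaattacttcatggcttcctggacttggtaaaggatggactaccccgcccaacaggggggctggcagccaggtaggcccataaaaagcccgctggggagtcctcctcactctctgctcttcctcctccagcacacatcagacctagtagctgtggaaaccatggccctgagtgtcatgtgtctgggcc

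The kappaB motif was present in 3 of the 7 windows, with 2 matches in Cxcl1, 2 in Cxcl2 and 1 in Ccl20, all between 71 and 97 bases before the start. Cxcl1 and Cxcl2 share the identical match GGGAATTTCC, although their windows were 54.3% identical when aligned. Of all 32851 promoter windows of this length, 1.63% held the motif. The windows of Saa1, Saa2, Lcn2 and Ltf held 1 C/EBP match each and no kappaB match, where 10.8% of all windows held the C/EBP motif. None of the 7 held the STAT motif, which 8.3% of all windows held. A match describes the letters only and shows no binding.

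Lbp fell, and it was the only one of the 10 to pass the threshold with all 6 arrays, an adjusted p under 0.05 in limma over all genes. Over all genes, 2.26% were called lower and 0.120% higher in that fit. In the fit of the other 5 arrays Cxcl1, Cxcl2 and Ccl20 rose, and Cxcl5, Csf3, Lbp and Lcn2 fell. Saa1, Saa2 and Ltf did not pass in either fit. The second fit called 12.3% of all genes higher and 14.3% lower, the background against which 3 and 4 of 10 are to be read. These splits move with the scaling: 24 higher and 450 lower genes with all arrays became 185 and 626 after a second quantile normalization and 557 and 1197 after cyclic loess, and 2454 and 2855 without DOX replicate 2 became 1823 and 3410 after centring arrays on their medians. The 10 genes had a median difference of −0.24 in the fit of 6 arrays and of −0.14 in the fit of 5, against 0.02 and 0.01 over all genes. The sign of that median rests on single arrays: the fit of 5 arrays gave 0.13 once DOX replicate 1 was dropped too.

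**Figure D1:**
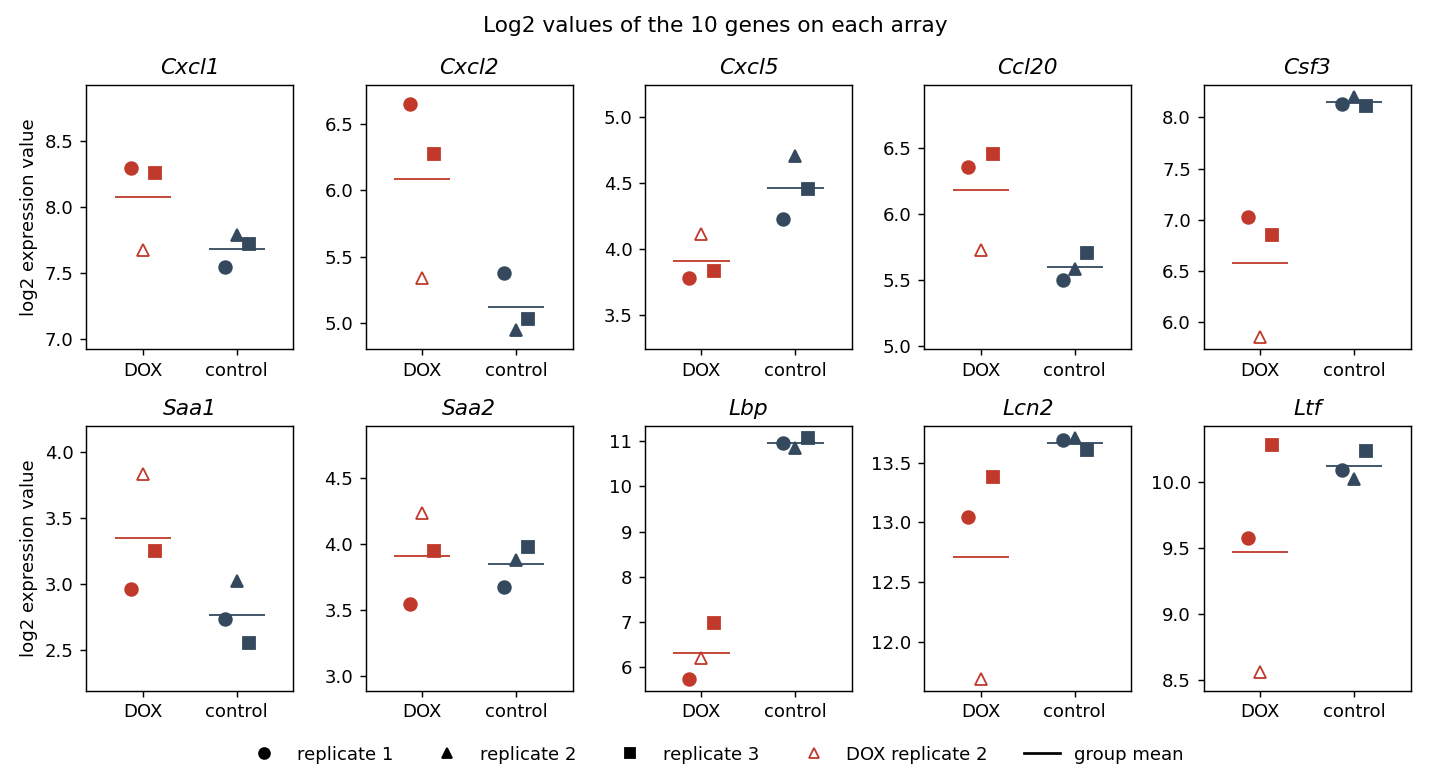
Log2 expression value of each gene (vertical axes, each panel with its own range) on the 3 DOX arrays and the 3 control arrays, with symbols by replicate number, the open triangle for DOX replicate 2 and a line at each group mean. The DOX arrays of Lbp lie between 5.75 and 6.99 and its control arrays between 10.86 and 11.07, and for Cxcl1, Cxcl2 and Ccl20 the open triangle lies below the other 2 DOX arrays.

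Cxcl1 and Cxcl2 encode chemokines that attract neutrophils through the receptor CXCR2. Cxcl1 read 8.30, 7.68 and 8.26 in DOX replicates 1, 2 and 3, against 7.55, 7.78 and 7.72 in control replicates 1, 2 and 3. DOX replicates 1 and 3 lay above every control array, and DOX replicate 2 lay within the control range. With all arrays the difference was 0.39 (SE 0.23, limma adjusted p = 0.453), and without DOX replicate 2 it was 0.59 (SE 0.12, limma adjusted p = 0.00343), a 1.51-fold rise. On DOX replicate 2 Cxcl1 differed from the control mean by −0.01, while genes in the same 10% step of control level read a median of −1.06. Cxcl2 read 6.65, 5.34 and 6.28 in DOX replicates 1, 2 and 3, against 5.38, 4.94 and 5.03 in the control replicates. Only DOX replicates 1 and 3 lay above all control arrays. On DOX replicate 2 Cxcl2 differed from the control mean by 0.22, less than the median of 0.63 for genes in its 10% step. The difference was 0.97 with all arrays (95% confidence interval 0.12 to 1.83, limma adjusted p = 0.299). Without DOX replicate 2 Cxcl2 rose by 1.35 (SE 0.16, limma adjusted p = 1.09e-04), or 2.55-fold, the largest rise among the 10 genes.

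Cxcl5 encodes another chemokine of the CXCR2 group, and it ran the other way. It read 3.78, 4.12 and 3.83 in DOX replicates 1, 2 and 3, against 4.23, 4.71 and 4.46 in the control replicates, so that every DOX array lay below every control array. These values were low, at percentiles 6.5 to 11.7 of all genes on the DOX arrays and 19.5 to 27.8 on the control arrays. The difference was −0.55 with all arrays (SE 0.21, limma adjusted p = 0.306). In the other 5 arrays Cxcl5 fell by 0.66 (SE 0.14, limma adjusted p = 0.00571). On DOX replicate 2 Cxcl5 differed from the control mean by −0.35, where genes of the same control level differed by a median of 0.79. It was past the threshold in 5 of 14 alternatives to the fit of 6 arrays, where its limma adjusted p ran from 8.99e-04 with array weights to 0.743 without control replicate 3.

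Ccl20 encodes the ligand of CCR6, a receptor of dendritic cells and lymphocytes. It read 6.35, 5.72 and 6.45 in DOX replicates 1, 2 and 3, against 5.50, 5.58 and 5.71 in the control replicates. It was the only one of the 10 whose 3 DOX arrays all lay above all control arrays, but DOX replicate 2 cleared the highest control array by a narrow margin. On DOX replicate 2 Ccl20 differed from the control mean by 0.13, less than the median of 0.30 for genes in its 10% step. The difference was 0.58 with all arrays (95% confidence interval 0.00 to 1.16, limma adjusted p = 0.356). It rose by 0.81 without DOX replicate 2 (SE 0.12, limma adjusted p = 4.68e-04).

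Csf3 encodes granulocyte colony-stimulating factor, which drives the production of neutrophils. It read 7.03, 5.85 and 6.86 in DOX replicates 1, 2 and 3, against 8.13, 8.20 and 8.11 in the control replicates, with no overlap between the groups. The group means were 6.58 ± 0.63 in DOX arrays and 8.15 ± 0.05 in control arrays (SD, n = 3 each). With all arrays the difference of −1.57 (SE 0.33) did not pass over all genes (limma adjusted p = 0.0754). Csf3 fell by 1.20 in the fit without DOX replicate 2 (SE 0.11, limma adjusted p = 2.10e-05). In DOX replicates 1 and 3 Csf3 thus ran against Cxcl1 and Cxcl2, although all 3 encode signals that act on neutrophils. On DOX replicate 2 Cxcl1 and Cxcl2 lay within their control ranges, and with all arrays none of the 3 was called.

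Every DOX array lay above every control array for 1 of the 10 genes, Ccl20, and below for 4, Cxcl5, Csf3, Lcn2 and Lbp. Over all genes these shares were 11.7% and 20.3%. The groups overlapped for the other 5.

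**Figure D2:**
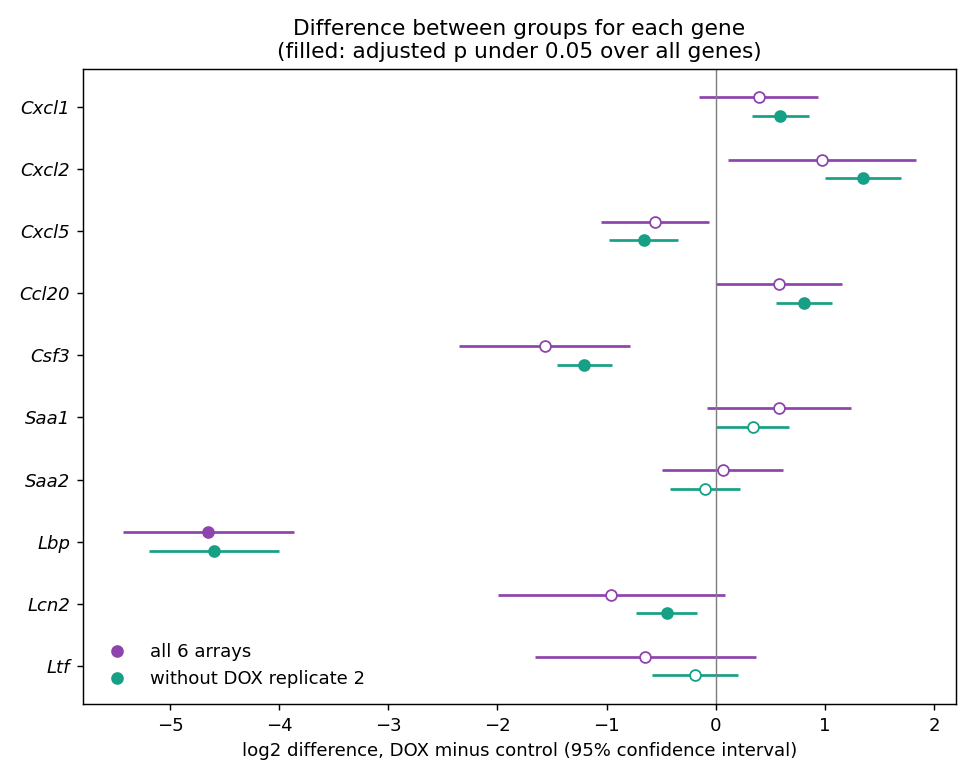
Log2 difference between DOX and control arrays (horizontal axis) for each gene with its 95% confidence interval from limma, with all 6 arrays in purple and without DOX replicate 2 in green; filled points have an adjusted p under 0.05 over all genes. With all arrays only Lbp is filled, at −4.65, and without DOX replicate 2 the points of Saa1, Saa2 and Ltf are hollow.

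Lbp encodes lipopolysaccharide-binding protein. It read 5.75, 6.20 and 6.99 in DOX replicates 1, 2 and 3, against 10.95, 10.86 and 11.07 in the control replicates. The groups did not overlap, and the DOX arrays varied more among themselves than the control arrays did (6.31 ± 0.63 in DOX arrays and 10.96 ± 0.10 in control arrays, SD, n = 3 each). Lbp fell by 4.65 (SE 0.33, 95% confidence interval −5.43 to −3.87, limma adjusted p = 0.00205), which is 25.1-fold lower. Without DOX replicate 2 it fell by 4.59 (SE 0.27, limma adjusted p = 5.43e-07), and it passed the threshold in all 16 alternatives to the fit of 6 arrays, with its highest limma adjusted p, 0.0379, when control replicate 2 was left out. On DOX replicate 2 it differed from the control mean by −4.76, against a median of −1.59 for genes in the same 10% step. In a culture of mixed cells, fewer cells of a type and less RNA per cell cannot be told apart. The list of luminal markers, the inner-layer cells, averaged 10.19, 9.02 and 10.10 in DOX replicates 1, 2 and 3, against 10.38, 10.42 and 10.40 in the control replicates. Of its 10 genes 1 fell with all arrays, the alveolar transcription factor Elf5 (−2.19, limma adjusted p = 0.0189). In the fit of 5 arrays Elf5, Krt8 and Krt18 fell, the tight junction gene Cldn4 rose by 1.88 (limma adjusted p = 1.01e-05), and the list's median was −0.29. Of all genes 14.3% were called lower and 12.3% higher in that fit, and 2.26% lower with all arrays. The part of these markers in the fall of Lbp was not tested.

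Saa1 and Saa2 encode serum amyloid A proteins, apolipoproteins that rise steeply in blood during the acute phase. They are neighbouring copies, and the last 100 bases of their promoter windows, which span the annotated start, are shown because they differ at 1 base, in capitals. The whole windows were 95.3% identical when aligned.
Saa1, chr7:46742931-46743030, minus strand: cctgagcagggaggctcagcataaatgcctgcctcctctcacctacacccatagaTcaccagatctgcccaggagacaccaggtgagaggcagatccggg
Saa2, chr7:46751783-46751882, plus strand: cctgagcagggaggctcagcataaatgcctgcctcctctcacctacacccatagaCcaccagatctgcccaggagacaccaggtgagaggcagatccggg

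Probe sets of such similar genes can share signal, so values of the pair are uncertain. Saa1 read 2.96, 3.83 and 3.25 in DOX replicates 1, 2 and 3, against 2.73, 3.02 and 2.55 in the control replicates, with overlap between the groups. Its difference was 0.58 with all arrays (95% confidence interval −0.08 to 1.24, limma adjusted p = 0.406) and 0.34 without DOX replicate 2 (95% confidence interval 0.00 to 0.67, limma adjusted p = 0.131). Saa2 read 3.55, 4.23 and 3.95 in DOX replicates 1, 2 and 3, against 3.68, 3.88 and 3.98 in the control replicates. Its difference was 0.06 with all arrays (95% confidence interval −0.49 to 0.62, limma adjusted p = 0.88) and −0.10 without DOX replicate 2 (95% confidence interval −0.42 to 0.23, limma adjusted p = 0.681). Both genes read in the lowest 15% of values on every array. The third inducible copy, Saa3, read 3.15, 3.68 and 3.11 in DOX replicates 1, 2 and 3, against 2.83, 2.79 and 2.94 in the control replicates (difference 0.46, limma adjusted p = 0.404). The DOX arrays of Saa3 all lay above its control arrays. None of the 3 genes passed in either fit.

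Lcn2 encodes lipocalin 2, which binds bacterial siderophores. It read 13.05, 11.69 and 13.38 in DOX replicates 1, 2 and 3, against 13.69, 13.71 and 13.60 in the control replicates, with every DOX array below every control array. With all arrays the difference was −0.96 (95% confidence interval −1.99 to 0.08, limma adjusted p = 0.393). Lcn2 fell by 0.45 without DOX replicate 2 (SE 0.13, limma adjusted p = 0.0234), which is 1.36-fold lower. That call was lost in 4 of 14 alternatives. These were the replicate number as a block (−0.43, limma adjusted p = 0.0647) and leaving out DOX replicate 1 as well (−0.28, a single DOX array left). The others left out control replicate 1 or 2 as well (−0.44 and −0.43, limma adjusted p = 0.0721 and 0.0806). The block and leaving out control replicate 2 gave the same estimate, since without DOX replicate 2 that control array stood alone in its block. On DOX replicate 2 Lcn2 differed from the control mean by −1.97, against a median of −1.59 for genes of its step.

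Ltf encodes lactoferrin, an iron-binding milk protein. It read 9.58, 8.56 and 10.28 in DOX replicates 1, 2 and 3, against 10.09, 10.02 and 10.23 in the control replicates. DOX replicate 3 was above and DOX replicate 1 below every control array. The difference was −0.64 with all arrays (95% confidence interval −1.65 to 0.37, limma adjusted p = 0.478) and −0.19 without DOX replicate 2 (95% confidence interval −0.58 to 0.21, limma adjusted p = 0.49). On DOX replicate 2 it differed by −1.55 from the control mean, close to the −1.59 of genes of its step.

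**Figure D3:**
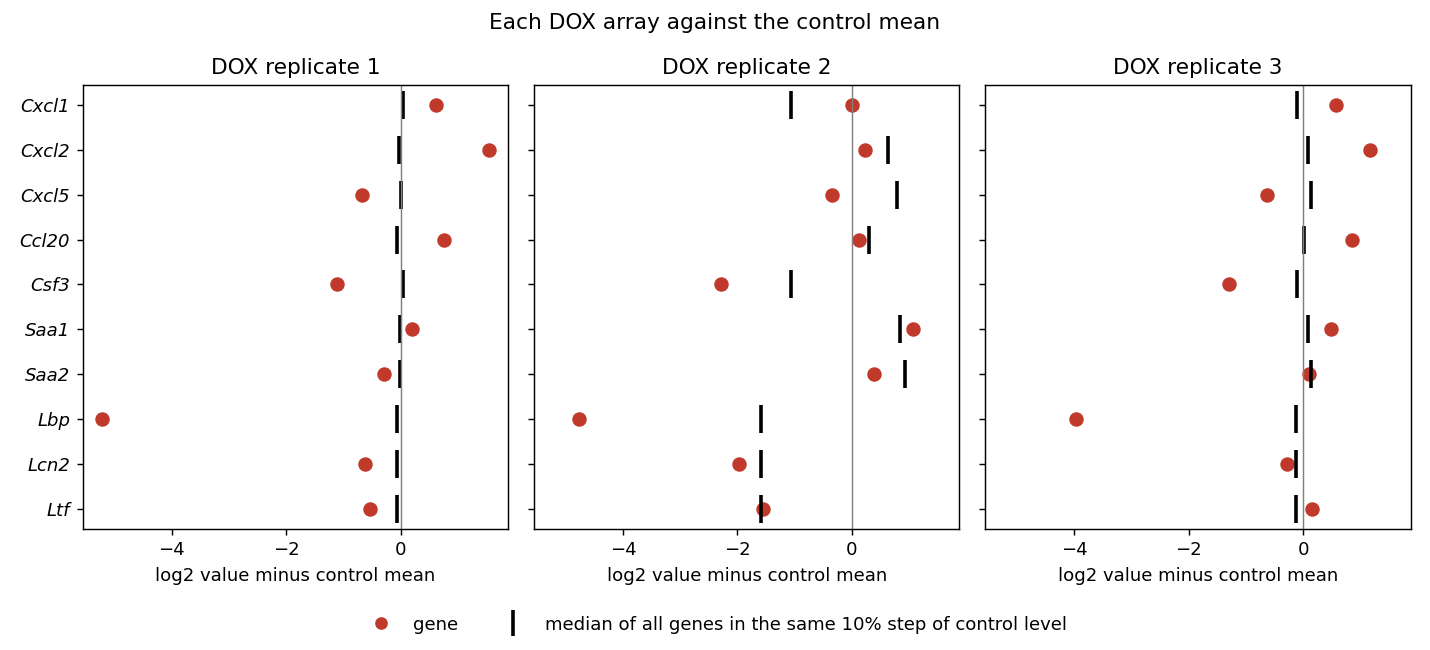
Log2 value of each gene on each DOX array minus its control mean (red points, horizontal axis), beside the median of the same quantity over all genes in the same 10% step of control level (black bars). On DOX replicates 1 and 3 the bars lie near 0, and on DOX replicate 2 they run from 0.93 to −1.59. There Cxcl1 and Saa1 lie to the right of their bars and Ltf lies close to its bar. Cxcl2, Cxcl5, Ccl20, Csf3, Saa2, Lbp and Lcn2 lie to the left of theirs.

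Lcn2 and Ltf are also granule genes of neutrophils, and Csf3 and the chemokines are made by macrophages and fibroblasts too. The 12 neutrophil markers averaged 4.27, 5.35 and 4.54 in DOX replicates 1, 2 and 3, against 4.31, 4.39 and 4.33 in the control replicates, and their control means ran from 3.49 to 5.45. Ly6g, a surface marker of mouse neutrophils, read 3.71, 5.55 and 4.85 in DOX replicates, against 3.44, 3.75 and 3.49 in the control replicates (difference 1.14 with all arrays, limma adjusted p = 0.332, and 0.72 without DOX replicate 2, limma adjusted p = 0.0609). Genes of low control level in general read higher on DOX replicate 2. The median gene was shifted by 0.93 there at control means of 3.67 to 4.28, and by 0.63 at 4.78 to 5.27. The 9 macrophage markers averaged 4.73, 5.23 and 4.90 in DOX replicates and 4.79, 4.81 and 4.80 in the control replicates. In the fit of 5 arrays none of the neutrophil markers rose and Elane fell, while among macrophage markers the lysosomal protein gene Cd68 rose and Cd163 and Mertk fell. Among 9 lymphocyte markers Ptprc and Nkg7 rose without DOX replicate 2 (0.38 and 0.41). In that fit 12.3% of all genes were called higher and 14.3% lower, the background for these counts. Adgre1, which marks macrophages, averaged 3.84 in DOX arrays and 3.93 in control arrays. The 8 fibroblast markers averaged 4.69 to 5.56 in DOX arrays and 4.72 to 4.84 in control arrays, with none called in either fit. None of the markers of these 4 cell types was called with all arrays, and their part in the differences above was not tested.

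Of 9 receptors for the encoded ligands none was called with all arrays, and without DOX replicate 2 the chemokine receptor Cxcr1 (0.84, SE 0.18) and the endocytic receptor Lrp1 (0.71, SE 0.13) rose and Slc22a17, described as a lipocalin 2 receptor, fell by 0.40 (SE 0.12). Over all genes 12.3% were called higher and 14.3% lower in that fit. Cxcr2 averaged 3.63 in control arrays, Ccr6 averaged 4.14 and Csf3r averaged 4.42. Their differences without DOX replicate 2 were 0.16, 0.04 and 0.27 (limma adjusted p = 0.363, 0.889 and 0.13).

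Among pattern and cytokine receptors and their adaptors, 6 of 20 fell and 1 rose without DOX replicate 2, where 14.3% of all genes were called lower and 12.3% higher. With all arrays none was called. Cd14, the coreceptor that takes lipopolysaccharide from LBP, read 8.46, 6.02 and 8.70 in DOX replicates 1, 2 and 3, against 9.71, 9.58 and 9.64 in the control replicates. Every DOX array lay below every control array, and without DOX replicate 2 Cd14 fell by 1.06 (SE 0.12, limma adjusted p = 8.00e-05), against −1.92 with all arrays (limma adjusted p = 0.286). On DOX replicate 2 the median gene of the top 10% by control mean, where Cd14 lay, was shifted by −1.59. Tlr4, the receptor itself, differed by 0.31 without DOX replicate 2 (limma adjusted p = 0.193). The signalling adaptor Myd88 (−0.69), the IL-1 receptor subunit Il1rap (−0.91) and the IL-17 receptor subunit Il17re (−0.81) also fell in that fit, and Tlr2, which senses bacterial lipoproteins, rose by 0.43 (limma adjusted p = 0.0218).

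**Figure D4:**
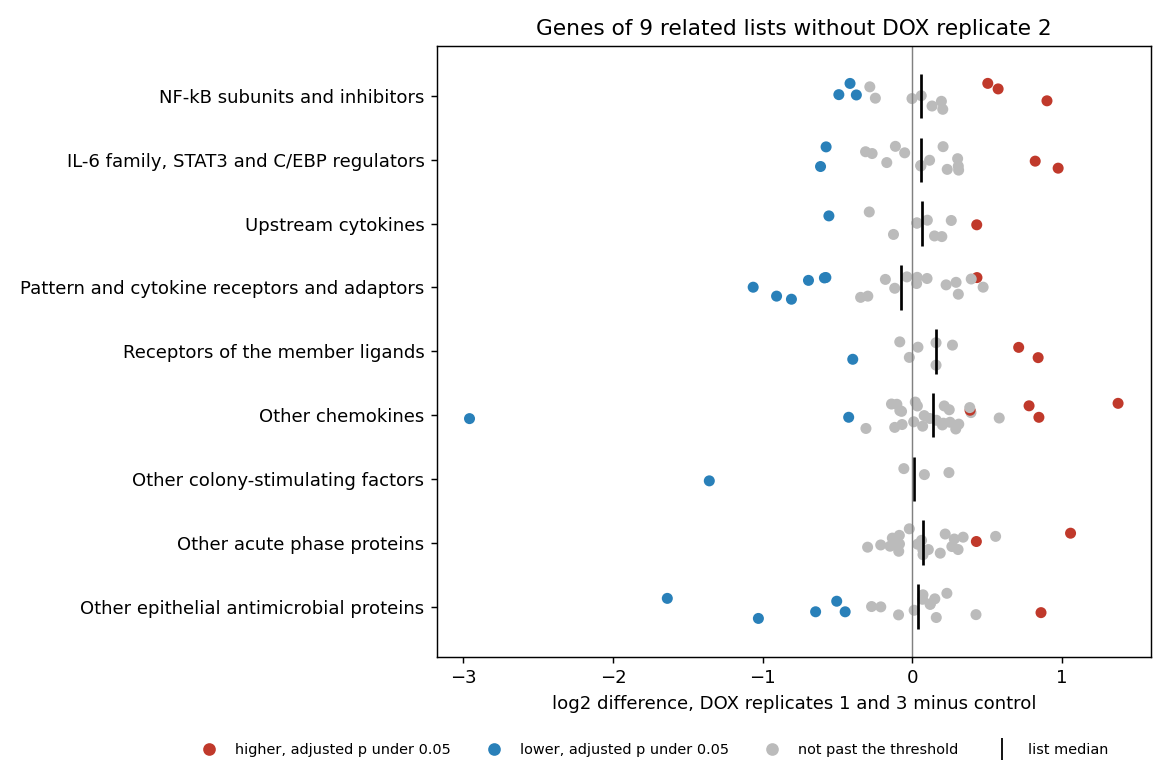
Log2 difference without DOX replicate 2 (horizontal axis) for the measured genes of 9 related lists, coloured by call, with a bar at each list's median. The medians lie between −0.08 and 0.16, and the points farthest from 0 are Ccl9 at −2.96 among other chemokines, Pglyrp1 at −1.64 among antimicrobial proteins and Cxcl16 at 1.37 among other chemokines.

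In the fit of 5 arrays 3 of 13 genes of the NF-kB list rose and 3 fell, against 12.3% and 14.3% of all genes, and the list's median was 0.06. Those that rose were Ikbkg, a scaffold of the IkB kinase (0.90, SE 0.15), the feedback inhibitor Tnip1 (0.57, SE 0.13) and the subunit Rela (0.50, SE 0.12). Bcl3, an IkB-like coregulator, fell by 0.49 (SE 0.14), and Ikbkb, a kinase subunit, and Rel fell as well. Nfkbia, the inhibitor that NF-kB itself induces, and Nfkbiz, a coactivator of Lcn2, differed by 0.19 and 0.00 (limma adjusted p = 0.437 and 0.988). With all arrays none of the 13 was called.

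Of 17 genes of the IL-6 family, STAT3 and C/EBP, none was called with all arrays. Without DOX replicate 2, 2 of the 17 rose and 2 fell, where 12.3% of all genes were called higher and 14.3% lower. The cytokine Lif (0.82, SE 0.11) and the shared receptor subunit Il6st (0.97, SE 0.14) rose. Stat3 fell by 0.58 (SE 0.11, limma adjusted p = 0.00247) and the oncostatin receptor Osmr fell by 0.61 (SE 0.12). Cebpb, Cebpd and the STAT3 target Socs3 differed by 0.23, 0.20 and −0.27 (limma adjusted p = 0.156, 0.246 and 0.102). Il6 itself averaged 2.68 in control arrays and differed by −0.31 (limma adjusted p = 0.0923).

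Il1b and Tnf averaged 4.60 and 4.81 in control arrays and differed by 0.10 and 0.03 without DOX replicate 2 (limma adjusted p = 0.559 and 0.889). Of the 10 measured, Il1rn, which encodes the interleukin 1 receptor antagonist, fell by 0.56 (SE 0.11), and Il17f rose by 0.43 (SE 0.13) without DOX replicate 2, against 14.3% of all genes lower and 12.3% higher in that fit. With all arrays none was called.

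Of 30 other chemokines 4 rose and 2 fell without DOX replicate 2, where 12.3% of all genes were called higher and 14.3% lower. With all arrays 1 fell, where 2.26% of all genes were called lower. That 1 was Ccl9, a ligand of CCR1, which read 4.82, 6.46 and 5.06 in DOX replicates 1, 2 and 3, against 7.80, 8.06 and 7.85 in the control replicates. With all arrays Ccl9 fell by 2.45 (limma adjusted p = 0.0434), and leaving out DOX replicate 2 gave a fall of 2.96, a difference of −2.96 (SE 0.13, limma adjusted p = 7.68e-08). Cxcl16, a membrane-anchored chemokine, read 8.17, 5.64 and 7.51 in DOX replicates, against 6.42, 6.48 and 6.49 in the control replicates, and rose by 1.37 without DOX replicate 2 (SE 0.17, limma adjusted p = 1.53e-04). DOX replicate 2 lay below its control arrays. Ccl25, a ligand of CCR9, rose by 0.84 (SE 0.16) and Cxcl12 fell by 0.43 (SE 0.12) in that fit. Of 4 other growth factors of blood cells, Kitl, the ligand of KIT, fell by 1.36 without DOX replicate 2 (SE 0.12), with −1.72 in all arrays (limma adjusted p = 0.0571).

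Of 22 other acute phase genes, Mt1, a metallothionein (1.06, SE 0.17), and Hpx, hemopexin (0.43, SE 0.13), rose without DOX replicate 2, none fell, and none was called with all arrays. Their median difference was 0.35 in the fit of 6 arrays and 0.07 in the fit of 5, and 2 of 22 higher stands against 12.3% of all genes. Among 18 other antimicrobial proteins 5 fell and 1 rose without DOX replicate 2, where 14.3% of all genes were called lower and 12.3% higher. None of the 18 was called with all arrays. Pglyrp1, a peptidoglycan recognition protein, read 8.57, 7.19 and 8.92 in DOX replicates 1, 2 and 3, against 10.34, 10.52 and 10.29 in the control replicates, and fell by 1.64 without DOX replicate 2 (SE 0.14, limma adjusted p = 8.21e-06). On DOX replicate 2 the median gene of the top 10% by control mean, where Pglyrp1 lay, was shifted by −1.59. Without that array Muc1, a cell-surface mucin, fell by 1.03 (SE 0.15) and Wfdc2 fell by 0.65 (SE 0.13). Slpi, a secreted protease inhibitor, read 7.32 in each of the DOX replicates, against 6.34, 6.55 and 6.49 in the control replicates. It rose by 0.86 without DOX replicate 2 (SE 0.11, limma adjusted p = 2.76e-04), and with all arrays its difference of 0.86 did not pass (limma adjusted p = 0.0566).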

How the data were processed

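RNA from 6 organoid cultures was hybridised to 1-colour Affymetrix whole-transcript arrays. The authors deposited log2 values, 1 for each probe set; RMA and affy appear in the submitters' processing notes, with no version. They were analysed unchanged. RMA makes no detection calls, and depth does not apply: 3 arrays a group set the precision. Of 34760 probe sets 21640 carried 1 gene symbol, 1321 several and 11799 none here. Where a gene had several, the one of highest mean over the 6 arrays was kept, leaving 19937 genes. Titles gave the groups and replicate numbers. The test was limma 3.58.1 (R 4.3.3), two-sided, without covariates, with Benjamini-Hochberg adjustment over all genes. It was also run on simulated data in which a gene had equal spread on every array. Those data held no compressed array, so they did not try the test on one such as DOX replicate 2. Alternatives were gene filters, normalizations, array weights, a replicate block and leaving out arrays. The 10 genes and 17 lists (225 genes, 208 measured) were chosen with earlier results of these data known, so lists get counts and medians only. The rule for names took all 10 genes, list genes called with all arrays, up to 4 called without DOX replicate 2 by smallest p, and a set group such as Tlr4 and Nfkbia. Ikbkb, Rel, Krt18, Cldn4, Cnn1, Itga6, Elane, Cd68, Cd163, Mertk and Nkg7 were added after their values were seen, to complete small counts and tissue checks.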

Additional observations from a re-analysis of the deposited data

How the results depend on the processing

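With all arrays, 24 genes were higher and 450 lower. A second quantile normalization gave 185 higher, centring gave 7 higher, cyclic loess gave 557 and 1197, and array weights gave 3643 and 3752. Omitting single arrays gave 2 to 2454 higher genes and 61 to 2855 lower genes. Of the 10 genes, 0 higher and 1 lower became 2 lower with quantile normalization, 1 and 3 with cyclic loess and 4 and 4 with array weights, and 0 to 3 higher and 1 to 4 lower with an array omitted. Their median of −0.24 became −0.45 with centring and 0.0329 with array weights, and ran from −0.338 to −0.122 with an array omitted. Saa2 changed sign with quantile normalization (−0.247), centring (−0.14) and cyclic loess (−0.198), and ran from −0.0965 to 0.246 with an array omitted. Ltf became 0.0172 with array weights. The causes were not tested.

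Replicate numbers were not taken as pairs, a choice that the following values cannot settle. Deviations from the group means of same-numbered arrays correlated at 0.117, 0.194 and 0.0852 across genes. The best control match of the DOX arrays was 1, 2 and 1. DOX replicate 2, which stood apart, enters the mean from which all DOX deviations were taken, so it weighs on every one of these comparisons. With the replicate block, all arrays gave 3 higher and 159 lower genes; without DOX replicate 2 the block gave 1841 and 2320 genes, 4 and 3 of the 10 genes, and −0.0806 for Saa2. Saa1 was the added higher call (0.464, limma adjusted p = 0.0488). Leaving out control replicate 2 in place of the block gave Saa1 the same difference and no call (limma adjusted p = 0.0608).

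Without DOX replicate 2, leaving out a further array, an alternative chosen after seeing the data, gave 1550 to 2515 higher genes, medians of −0.418 to 0.133, Saa2 at −0.297 to 0.104 and Ltf at −0.54 to 0.162. Leaving out the lower 50% of genes removed Cxcl2 and Ccl20, so 1 of the 10 was higher; the 25% and 50% filters gave no value for Saa1, Saa2 and Cxcl5. Cxcl1, Cxcl2, Cxcl5, Ccl20, Csf3 and Lbp kept direction and call in every alternative to that fit that tested them.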
